A study of Mus musculus with 10 samples.

Results

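The creatine kinase and phosphagen genes were followed through 4 deposited expression tables of C2C12 cells, a mouse myoblast line that fuses into myotubes when serum is reduced. The 9 genes were taken by symbol and are Ckm, Ckb, Ckmt1, Ckmt2, Gatm, Gamt, Slc6a8, Ak1 and Ampd1. All 9 were found among the 23417 gene symbols of each Huwe1 table and the 23431 of the USP10 table. The study asked how Huwe1, an E3 ubiquitin ligase that acts on the TATA-binding protein TBP, and USP10, a deubiquitinase that opposes it, bear on muscle differentiation.

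Control cells, labelled wildtype, and cells with Huwe1 shRNA were compared in growth medium (day 0) and after 6 days in differentiation medium, with the same 2 hairpins at both times. The hairpins labelled for these days are not the ones given in the methods, whereas those of day 8 are. In the day 8 myotubes the control carried a non-targeting RNA and 2 other hairpins were used, and the virus was added on day 4, after differentiation had begun. The USP10 cells were a stable line with USP10 cDNA behind the EF1a promoter, taken at day 6 and set against a control column that could not be mapped to a labelled library. The header of that table gives this column the same source file name as the control of the Huwe1 day 6 table, but the values differ, so whether they are 1 library or 2 is not known. Knockdown cells were selected with puromycin, whereas the wildtype controls are not described as carrying a hairpin. Each Huwe1 table was made from 1 control and 2 knockdown libraries, and it gives 1 FPKM value per condition (fragments corrected for the length of the transcript and for sequencing depth), the knockdown libraries being pooled. No comparison therefore has a replicate check, and no test or error could be computed for any value below.

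Creatine kinases move a phosphate between ATP and creatine, so that phosphocreatine buffers ATP where it is spent fastest. Differentiating muscle is known for changing from the brain-type cytosolic subunit Ckb to the muscle-type subunit Ckm, and for using the sarcomeric mitochondrial kinase Ckmt2 in place of the ubiquitous Ckmt1. Creatine itself is made by Gatm and then Gamt or is taken up by the transporter Slc6a8, while adenylate kinase Ak1 and AMP deaminase Ampd1 handle the ADP and AMP that contraction leaves.

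The promoters of Ckm, Ckb and Ckmt2 are shown because these are the 3 creatine kinases that reached 1 FPKM and because the study concerned TBP, which binds TATA boxes. They are the 250 bases before the annotated start in RefSeq on GRCm38.p6, 5′ to 3′ on the gene's strand, with the E-box motif CANNTG (on either strand) and the letters TATAA (on the gene's strand) in capitals. The Ckm stretch is chr7:19410844-19411093 on the plus strand, the Ckb stretch is chr12:111672339-111672588 on the minus strand, and the Ckmt2 stretch is chr13:91876886-91877135 on the minus strand.
Ckm: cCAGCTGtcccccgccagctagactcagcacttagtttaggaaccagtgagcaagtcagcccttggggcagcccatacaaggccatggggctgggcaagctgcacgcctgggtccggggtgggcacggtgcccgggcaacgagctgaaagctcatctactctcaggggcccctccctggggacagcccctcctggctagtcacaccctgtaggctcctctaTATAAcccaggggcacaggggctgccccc
Ckb: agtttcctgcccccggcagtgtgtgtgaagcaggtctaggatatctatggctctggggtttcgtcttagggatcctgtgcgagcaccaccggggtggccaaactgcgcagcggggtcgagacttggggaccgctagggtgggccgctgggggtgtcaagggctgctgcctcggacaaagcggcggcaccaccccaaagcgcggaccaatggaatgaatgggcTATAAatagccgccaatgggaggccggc
Ckmt2: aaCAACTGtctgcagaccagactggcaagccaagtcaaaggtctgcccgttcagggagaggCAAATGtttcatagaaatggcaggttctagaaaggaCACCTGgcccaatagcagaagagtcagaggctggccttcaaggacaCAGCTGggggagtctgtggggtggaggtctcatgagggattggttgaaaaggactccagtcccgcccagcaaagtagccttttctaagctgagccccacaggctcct
TATAA began 29 bases before the start of Ckm and 28 bases before that of Ckb, and it was not found in the Ckmt2 stretch. Within 50 bases of the start, 4.93% of all 32851 promoters of this length held TATAA, and 16.0% held it anywhere in the 250 bases. E-boxes were found once in Ckm, not in Ckb, and 4 times in Ckmt2, and 66.2% of all promoters held at least 1. A MEF2 site overlapped the TATAA of Ckb, with 2.92% of all promoters holding a match on either strand. Neither MCAT (CATTCCT, 4.51% of promoters) nor a CArG box (1.47%) was found before any of the 7 members with a listed promoter. Slc6a8 and Ampd1 were not matched. These matches describe letters and say nothing of what bound there.

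The expression files place Ckm on chromosome 7 from 19411094 to 19421583, Ckb on chromosome 12 from 111669355 to 111672338, Ckmt2 on chromosome 13 from 91853387 to 91876885 and Gatm on chromosome 2 from 122594473 to 122611277. Slc6a8 lies on chromosome X from 73673133 to 73682500, Ak1 on chromosome 2 from 32621758 to 32635058 and Ampd1 on chromosome 3 from 103074014 to 103099720 (mm10, whole genes). The locus listed for Gamt, chromosome 10 from 79697305 to 80369637, spans 672333 bases, although the annotated gene spans 2862 bases. That of Ckmt1, chromosome 2 from 121358641 to 121380940, also runs past the annotated gene, which ends at 121363737. Whether fragments from outside these 2 genes entered their values was not tested.

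The steps between the lowest FPKM values put the control libraries at about 22100000 fragments on day 0, 30000000 on day 6 and 18200000 on day 8. The USP10 table rested on 7820000 fragments in its control and 27800000 in the USP10 library. The pooled columns gave no estimate. Huwe1 was at 38.3 FPKM in the control against 15.2 FPKM in the knockdown on day 0, at 35.1 and 21.9 FPKM on day 6, and at 55.4 and 33.0 FPKM on day 8, so the knockdown left part of the transcript at every stage. Usp10 was at 38.3 FPKM in the overexpressing cells and 10.3 FPKM in their control. It was also higher in the day 6 Huwe1 knockdown (35.4 FPKM) than in its control (13.2 FPKM). Skeletal muscle markers were present in the differentiated controls, with Myog, a regulator of terminal differentiation, at 619 FPKM on day 6 and 392 FPKM on day 8 against 0.164 FPKM on day 0.

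**Figure D1:**
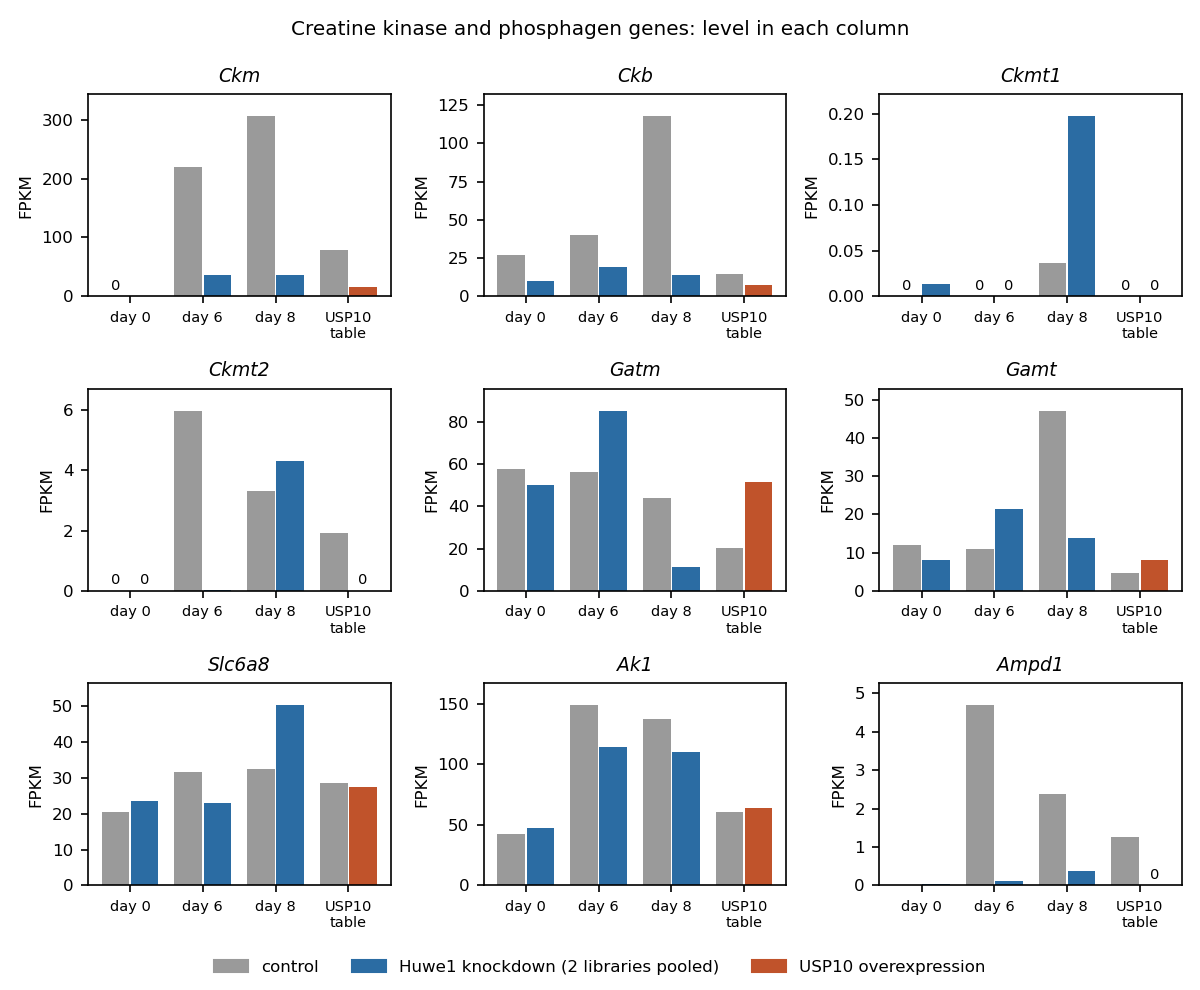
Level of each gene in FPKM (vertical axes start at 0 and differ between panels) in the control (grey), the pooled Huwe1 knockdown (blue) and the USP10 cells (orange) of each table, with 0 written where a value is listed at 0 and 1 value per bar without error. Ckm is at 219 and 306 FPKM in the day 6 and day 8 controls and at 36.2 and 37.2 FPKM in the knockdowns, while Ak1 stays above 110 FPKM in all 4.

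In the control cells the muscle-type enzymes appeared with differentiation. Ckm was listed at 0 in the day 0 control, where 3 fragments would be 0.110 FPKM, and was at 219 FPKM on day 6 and 306 FPKM on day 8. Ckmt2 was likewise listed at 0 on day 0, where 3 fragments would be 0.0915 FPKM, and was at 5.98 and 3.32 FPKM later. Ampd1, the muscle AMP deaminase, had 0.0196 FPKM on day 0, about what 1 fragment is worth, and 4.70 and 2.37 FPKM on days 6 and 8. These 3 genes were thus at or near the detection limit in myoblasts and measurable in both differentiated controls.

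Ckb was not lost as Ckm appeared. Its control level was 27.0 FPKM on day 0, 40.0 FPKM on day 6 and 118 FPKM on day 8, a 4.36-fold higher value at day 8 than at day 0. Since Ckm was so much higher, the share of Ckb in the summed FPKM of the 4 creatine kinases nonetheless went from 100% on day 0 to 15.1% on day 6 and 27.6% on day 8. Ckm was thus added to a level of Ckb that was no lower in these 2 controls, although the day 6 control column of the USP10 table had 14.4 FPKM of Ckb.

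Ak1, the cytosolic adenylate kinase of muscle, was 3.54-fold higher on day 6 (149 FPKM) and 3.27-fold higher on day 8 (138 FPKM) than on day 0 (42.1 FPKM). Over Ak1 to Ak5, Ak7 and Ak8, its share of the summed FPKM went from 23.4% on day 0 to 77.8% and 69.4%. Gatm, which makes guanidinoacetate, was at 57.8, 56.4 and 44.1 FPKM on days 0, 6 and 8, whereas Gamt, which methylates it to creatine, was at 11.9, 10.9 and 47.2 FPKM. Slc6a8 was at 20.4, 31.6 and 32.5 FPKM, and Ckmt1 did not pass 0.0366 FPKM in any control. Of the 8 members that reached 1 FPKM on one of these days, 4 were at least 2-fold higher on day 6 than on day 0 and 0 were lower, where 21.5% of all genes were higher and 23.2% lower. On day 8 against day 0 these numbers were 6 and 0 of 8, with 20.0% of all genes higher and 15.7% lower. The tables were normalized separately, so these differences between stages are descriptions. The day 8 control also carried a non-targeting RNA, whereas the day 0 and day 6 controls were wildtype. For the day 8 values, those of Ckb included, stage and type of control cannot be told apart.

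The control of the USP10 table was compared with the day 6 control of the Huwe1 table, which carries the same file name in its header. Whether they are 1 library or 2 was not tested, so their gap is a gap between columns and not a measured spread of cultures. Of 11459 genes, 992 were at least 2-fold lower in the control of the USP10 table and 1284 were higher. Among the latter, Cd34 was at 27.8 against 1.59 FPKM and Apoa1 at 2.39 FPKM against a listed 0. Ckm was at 78.1 FPKM in the control of the USP10 table against 219 FPKM in the other day 6 control. Ckb was at 14.4 against 40.0 FPKM, Gatm at 20.3 against 56.4 FPKM and Ak1 at 60.9 against 149 FPKM. Of 8 members, 7 were at least 2-fold lower in the control of the USP10 table and 0 were higher, where 8.66% of all genes were lower and 11.2% higher. Only Slc6a8, at 28.6 against 31.6 FPKM, was under 2-fold among these 8. The folds were alike for Ckm (2.80), Ckb (2.77) and Gatm (2.78). A difference of up to about 3-fold in most of these genes was thus seen between control columns of the same day. For the members, the differences below are given against both columns where the choice turns their direction. Pathway and marker genes are set against the control of their own table unless stated.

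At day 0, Ckb was the member that differed. It was at 27.0 FPKM in the control against 9.94 FPKM in the knockdown, a log2 ratio of -1.44 (treated over control, 0.01 FPKM added to each). In these bulk samples fewer cells with a transcript and less of it per cell cannot be told apart. Gatm (57.8 and 50.2 FPKM), Gamt (11.9 and 8.16 FPKM), Slc6a8 (20.4 and 23.6 FPKM) and Ak1 (42.1 and 47.5 FPKM) differed by less than 1.5-fold. The other 4 members were under 1 FPKM in both columns. In total 1 of 5 members was at least 2-fold lower and 0 were higher, where 1.69% of all genes were lower and 1.90% higher, and the median log2 ratio was -0.20 for the members and 0.00 for all genes. Of the 12 muscle identity genes, 1 of 7 with 1 FPKM was lower and 1 was higher.

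At day 6, the muscle-restricted members were much lower in the Huwe1 knockdown, and the 2 enzymes of creatine synthesis were not. Ckm was at 219 FPKM in the control against 36.2 FPKM in the knockdown (log2 ratio -2.60), so that it stood below both day 6 control columns, with a log2 ratio of -1.11 against the other one. Ckmt2 was at 5.98 and 0.0232 FPKM and Ampd1 at 4.70 and 0.105 FPKM. Their log2 ratios of -7.50 and -5.35 depend on the added value, and with 1 FPKM added they were -2.77 and -2.37. Both knockdown values lay below either control, since the control of the USP10 table had 1.91 FPKM of Ckmt2 and 1.26 FPKM of Ampd1.

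Ckb was at 40.0 FPKM in the day 6 control against 19.1 FPKM in the knockdown, a log2 ratio of -1.06 that lies just past 2-fold. The knockdown value was above the 14.4 FPKM of the control in the USP10 table, and against that column the log2 ratio was 0.41. The lower Ckb at day 6 thus held against 1 control column and turned against the other. Gatm went the other way, with 56.4 FPKM in the control against 85.4 FPKM in the knockdown (log2 ratio 0.60), as did Gamt with 10.9 and 21.5 FPKM (0.99, just under 2-fold). Both stood above the 2 day 6 controls. Slc6a8 (31.6 and 23.1 FPKM) and Ak1 (149 and 114 FPKM) were 1.37-fold and 1.31-fold lower, but against the other control column (60.9 FPKM) Ak1 was higher, with a log2 ratio of 0.90. Ckmt1 was listed at 0 in both columns.

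In all, 4 of 8 members were at least 2-fold lower at day 6 and 0 were higher, where 13.4% of all genes were lower and 17.6% higher. The median log2 ratio was -0.76 for the members and -0.01 for all genes, and against the other control column that of the members was 0.05, with 3 lower and 2 higher. Of 11696 genes tested against that column, 1160 were lower and 1515 higher. Markers of other cells moved in the same comparison. Of the 12 muscle identity genes, 10 were lower (summed level 19960 FPKM in the control against 3687 FPKM in the knockdown), while 9 of 10 mesenchymal genes were higher (185 and 5213 FPKM), led by Dcn, the matrix proteoglycan decorin, at 7.94 and 2987 FPKM, with Thy1 listed at 0 in both. Their part in the differences of the members was not tested.

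**Figure D2:**
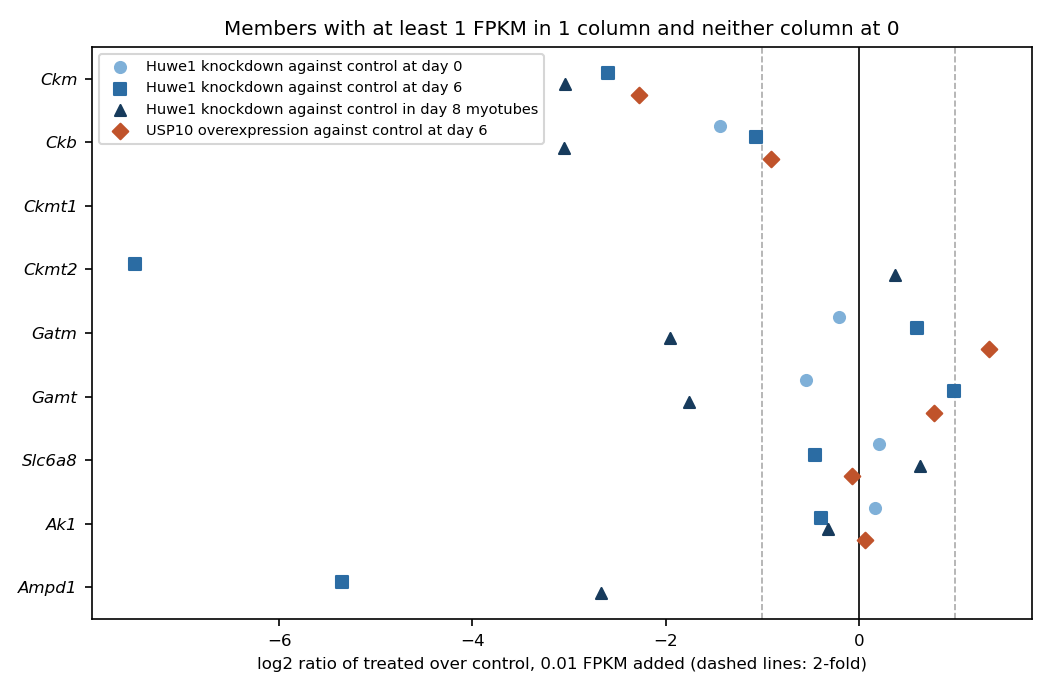
Log2 ratio of treated over control FPKM, with 0.01 added to each, for every member with at least 1 FPKM in 1 column and neither column at 0, and with dashed lines at 2-fold. Each ratio is against the control of the same table. Ckm lies between -3.04 and -2.27 in its 3 comparisons, Ak1 lies between -0.39 and 0.17 in all 4, and Gatm and Gamt lie on opposite sides of 0 at day 6 and day 8.

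In day 8 myotubes, where the virus was added to cells already differentiating, both cytosolic kinases and both synthesis enzymes were lower in the knockdown. Ckm was at 306 FPKM in the control against 37.2 FPKM in the knockdown, and Ckb was at 118 and 14.2 FPKM. The folds, 8.23 for Ckm and 8.26 for Ckb, were nearly the same. Gatm was at 44.1 and 11.3 FPKM (log2 ratio -1.96) and Gamt at 47.2 and 14.0 FPKM (-1.76), both being lower here and higher at day 6.

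Ckmt2 did not follow Ckm at day 8. It was at 3.32 FPKM in the control against 4.32 FPKM in the knockdown (log2 ratio 0.38), whereas Ampd1 was at 2.37 and 0.364 FPKM (-2.67, or -1.31 with 1 FPKM added). Slc6a8, the creatine transporter, was at 32.5 and 50.3 FPKM (0.63), its highest value in any column, and Ak1 was at 138 and 110 FPKM (-0.32). Ckmt1 reached its highest value of any column, 0.197 FPKM against 0.0366 FPKM in the control, the latter being about what 1 fragment is worth.

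At day 8, 5 of 8 members were at least 2-fold lower and 0 were higher, where 10.0% of all genes were lower and 7.89% higher, and the median log2 ratio was -1.86 for the members and 0.00 for all genes. Of the muscle identity genes 10 of 12 were lower (15706 and 3705 FPKM summed). Of 6 proliferation genes 5 were lower (241 and 58.2 FPKM), Mki67 being at 46.7 FPKM in the day 8 control against 0.629 FPKM in the day 6 control. The mesenchymal sum was 1015 FPKM in the control against 1175 FPKM in the knockdown. The part of these markers in the differences of the members was not tested.

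With USP10 overexpression at day 6, Ckm, Ckmt2 and Ampd1 were lower than in the control of the USP10 table. Gatm was higher against that control column only. Ckm was at 78.1 FPKM in the control against 16.2 FPKM in the USP10 cells, a log2 ratio of -2.27, and this was the lowest Ckm of the 6 differentiated columns. Ckmt2 (1.91 FPKM in the control) and Ampd1 (1.26 FPKM) were both listed at 0 in the USP10 cells, where 3 fragments would be 0.0725 and 0.0460 FPKM. The controls of these 2 genes rest on about 22 and 23 fragments. Ckb was at 14.4 and 7.69 FPKM (-0.90), just under 2-fold, and its log2 ratio was -2.38 against the other day 6 control.

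Gatm was at 20.3 FPKM in the control against 51.7 FPKM in the USP10 cells (log2 ratio 1.35), and Gamt was at 4.74 and 8.13 FPKM (0.78), the latter control resting on about 37 fragments. Against the other day 6 control the log2 ratio of Gatm was -0.13 and that of Gamt was -0.42, so neither gene was higher by that column. Slc6a8 (28.6 and 27.3 FPKM) and Ak1 (60.9 and 63.6 FPKM) differed 1.05-fold and 1.04-fold from the control of their own table. Against the other day 6 control (149 FPKM) Ak1 was lower, with a log2 ratio of -1.23, and that of Slc6a8 was -0.21. Ckmt1 was listed at 0 in both columns.

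With USP10, 3 of 8 members were at least 2-fold lower and 1 was higher, where 10.0% of all genes were lower and 9.70% higher. The median log2 ratio was -0.49 for the members, whatever value is given to the 2 genes listed at 0, and 0.05 for all genes. Against the other day 6 control the members had a median of -1.80, with 5 lower and 0 higher. Of 11597 genes tested against that column, 1792 were lower and 2029 higher. Of the muscle identity genes 9 of 12 were lower (8550 and 3976 FPKM summed). Of the 9 mesenchymal genes with 1 FPKM, 5 were higher (779 and 4572 FPKM summed over all 10). Their part was not tested.

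The balance of Ckm to Ckb can be read within a column, where the scaling between tables does not enter. On the scale of FPKM, which is per length, the ratio of Ckm to Ckb was 5.47 in the day 6 control and 5.42 in the control of the USP10 table, although the levels lay 2.80-fold (Ckm) and 2.77-fold (Ckb) apart. It was 1.89 in the day 6 Huwe1 knockdown and 2.10 in the USP10 cells. Both treated day 6 columns therefore had a lower ratio than both control columns of that day. Whether the 2 control columns come from 1 library was not tested, so their like ratios cannot be counted as a second measurement.

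At day 8 the ratio was 2.60 in the control and 2.61 in the knockdown. The summed creatine kinase level was 427 FPKM in the first and 55.9 FPKM in the second, so the total was lower and the balance nearly equal. The ratio was thus lower with knockdown at day 6 and not at day 8, a difference that was not tested. Stage, hairpins, type of control and time of infection all differ between these days and cannot be told apart. In the day 0 knockdown Ckm was at 0.0990 FPKM, 0.984% of the creatine kinase sum. Ckmt2 was 7.72% of the sum in the day 8 knockdown, and at most 2.26% in any other column.

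**Figure D3:**
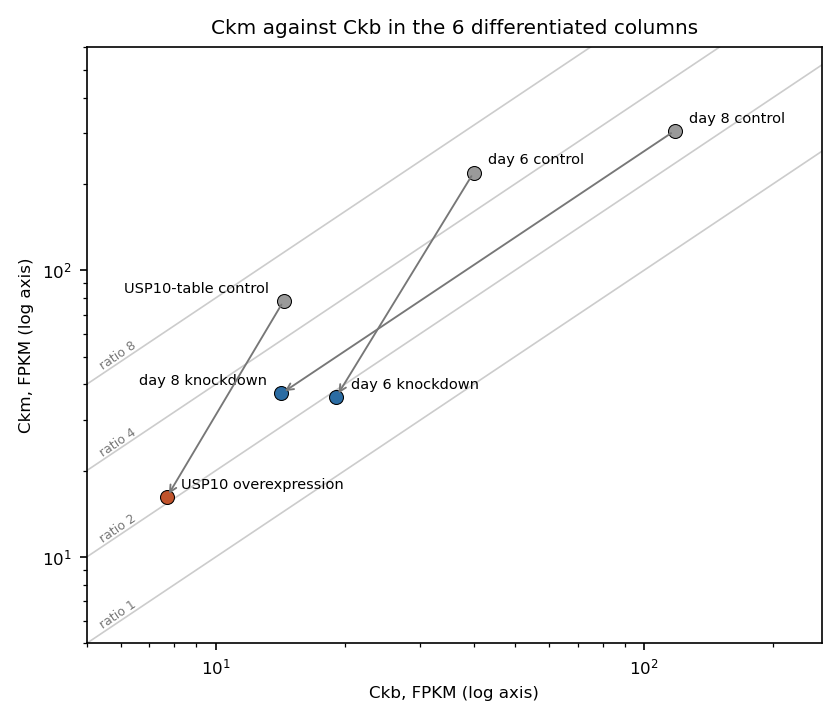
Ckm against Ckb in FPKM, both on log axes, in the 6 differentiated columns, with grey points for controls, blue for Huwe1 knockdown, orange for USP10, arrows from control to treated and grey lines of equal ratio. The day 8 arrow runs along a line of equal ratio (2.60 to 2.61), whereas both day 6 arrows cross the lines, from 5.47 to 1.89 and from 5.42 to 2.10.

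Markers of brain and of liver and kidney were examined because Ckb, Ckmt1, Gatm and Gamt are also used there. Of 8 neuronal and glial genes, Snap25, Rbfox3, Gfap, Olig2 and Sox10 did not pass 0.444 FPKM in any column. The other 3, the cytoskeletal genes Tubb3 and Map2 and the vesicle gene Syn1, were at least 2-fold higher at day 6 in the knockdown (summed level of the list 1.49 and 55.5 FPKM) and with USP10 (8.73 and 36.8 FPKM). At day 8, 1 of 3 was lower (9.70 and 3.90 FPKM summed), and at day 0 0 of 3 differed (74.3 and 56.6 FPKM). The 6 hepatic and renal genes summed to at most 0.0740 FPKM in the Huwe1 tables and to 3.31 and 3.89 FPKM in the USP10 table, where Apoa1 was at 2.39 and 2.82 FPKM. Of the 2 genes with 1 FPKM, both with USP10 only, 0 differed 2-fold.

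Of the smooth and cardiac muscle genes with 1 FPKM, 0 of 4 differed at day 0, and 2 of 4, 3 of 5 and 3 of 4 were lower at day 6, at day 8 and with USP10. Of 6 proliferation genes, 0 differed at day 0 or with USP10 and 4 were higher at day 6 (63.2 and 84.3 FPKM summed). Of 10 housekeeping genes 0 differed at day 0, while 1 was lower and 2 higher at day 6, 1 and 0 at day 8, and 0 and 2 with USP10. The 2 higher with USP10 were B2m, at 402 and 1195 FPKM (1.57), and Tbp, at 27.8 and 89.6 FPKM (1.69). Tbp, which encodes TBP, was at 10.8 FPKM in the other day 6 control. Of 8 mesenchymal genes, 1 was lower and 1 higher at day 0, and 1 and 2 at day 8.

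The purine nucleotide cycle recycles the IMP that AMP deaminase makes. Its muscle adenylosuccinate synthase, Adssl1, was at 67.1 FPKM in the day 6 control against 24.3 FPKM in the knockdown (log2 ratio -1.47), and at 98.8 and 30.7 FPKM on day 8 (-1.69). With USP10 it was at 36.5 and 18.9 FPKM (-0.95). Ampd3, another AMP deaminase gene, was higher in the same comparisons. It was at 15.6 and 27.1 FPKM on day 6 (0.80), 6.57 and 15.8 FPKM on day 8 (1.27) and 16.4 and 40.9 FPKM with USP10 (1.31). On day 0 it was already higher in the knockdown, at 3.93 and 7.78 FPKM (0.98, just under 2-fold). Of the 5 genes of the cycle other than Ampd1, 1 was at least 2-fold lower and 1 higher on day 6 and on day 8, 0 and 1 with USP10, and 0 and 0 on day 0.

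The ubiquitous synthase Adss, set beside Adssl1 after its values were seen, was at 18.7 FPKM in the day 6 control against 65.5 FPKM in the knockdown. The ratio of Adssl1 to Adss was 3.58 and 0.370 in these columns, 2.46 and 0.727 on day 8, and 0.934 and 0.261 in the USP10 table. Unlike the ratio of Ckm to Ckb, it was lower in the treated column at day 8 as well, and it differed 3.84-fold between the 2 day 6 controls.

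**Figure D4:**
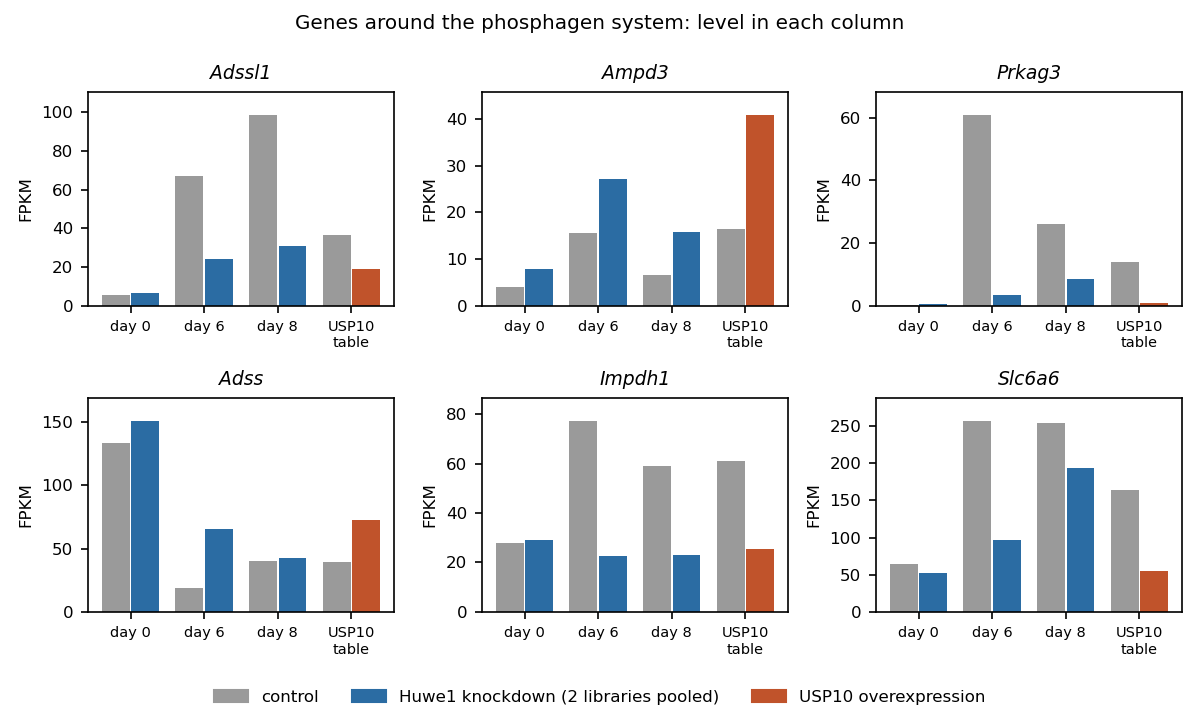
Level in FPKM (axes start at 0 and differ between panels) of 6 genes around the phosphagen system in each column, coloured as control (grey), Huwe1 knockdown (blue) and USP10 (orange). Adssl1, Prkag3, Impdh1 and Slc6a6 are lower in the treated column of all 3 differentiated tables, and Ampd3 is higher in all 3 and also at day 0.

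Among the AMPK subunits, which sense AMP, the muscle gamma subunit Prkag3 was at 61.0 FPKM in the day 6 control against 3.30 FPKM in the knockdown (log2 ratio -4.20), 26.1 and 8.43 FPKM on day 8 (-1.63), and 13.9 and 0.926 FPKM with USP10 (-3.89). Of 7 subunits, 3 were at least 2-fold lower and 1 higher on day 6, and 2 lower and 0 higher on day 8 and with USP10. On day 0, 0 of the 5 with 1 FPKM differed. Over all genes, 13.4%, 10.0% and 10.0% were lower on day 6, on day 8 and with USP10, and 17.6%, 7.89% and 9.70% higher. Among 12 genes of purine breakdown and salvage, Impdh1, which starts GMP synthesis, was at 77.3 and 22.5 FPKM on day 6 (-1.78), 58.9 and 23.1 FPKM on day 8 (-1.35), and 61.2 and 25.5 FPKM with USP10 (-1.26). Pnp, purine nucleoside phosphorylase, was at 1.69 and 5.29 FPKM on day 6 (1.64) and at 4.65 and 12.6 FPKM on day 8 (1.43), but at 9.05 and 5.90 FPKM with USP10 (-0.62). Both treated day 6 values of Pnp lay between the 2 day 6 controls, so its direction turned with the choice of control column. On day 6, on day 8 and with USP10, 10, 11 and 10 genes of that list had 1 FPKM. Of these 1 was lower each time, and 4, 2 and 2 were higher.

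The adenylate kinases other than Ak1 did not include a gene 2-fold lower in any comparison. Of 4 with 1 FPKM, 2 were at least 2-fold higher on day 6, 1 on day 8 and 2 with USP10, namely Ak4 and Ak5, both under 7 FPKM throughout. Among 12 precursor and transport genes of creatine, the taurine transporter Slc6a6, a relative of Slc6a8, was at 257 and 97.1 FPKM on day 6 (-1.41), 255 and 194 FPKM on day 8 (-0.39), and 165 and 55.1 FPKM with USP10 (-1.58). Ahcy, which clears the product of the Gamt reaction, was the other gene of that list 2-fold lower on day 6 (29.6 and 13.9 FPKM), a gene singled out after its values were seen. Only 6 of these 12 genes had 1 FPKM on day 6. Of the 6 carriers of ADP and ATP, 5 had 1 FPKM, and the translocase Slc25a5 was the 1 that was 2-fold lower, on day 8 (251 and 123 FPKM).

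Across the 8 columns, the genes whose log2(FPKM + 1) was most like that of Ckm among 8371 genes were Zeb1 (Pearson r = 0.997, 13.9 to 51.2 FPKM), Tnnc2 (r = 0.996, 0.257 to 2015 FPKM) and Nmrk2 (r = 0.995, 0.0767 to 17.9 FPKM). Tnnc2 is the fast skeletal troponin C. For Ckb they were Tmem63b (r = 0.934, 21.9 to 31.0 FPKM), Myzap (r = 0.933, 1.74 to 16.2 FPKM) and Rbbp4 (r = 0.932, 58.3 to 97.7 FPKM). Ckb itself ranged from 7.69 to 118 FPKM, so a high r here does not mean a like size of change. The columns share culture stages and treatments, so these values describe likeness over 8 points only.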

How the data were processed

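RNA was purified by the authors on oligo(dT) beads, made into libraries with the ScriptSeq v2 kit and sequenced on an Illumina HiSeq instrument. Reads were mapped with Tophat, and the labels also name Bowtie2, Cuffdiff and mm10, with versions not given in the sources used here. The deposited unit is FPKM, which the authors obtained with Cuffdiff, 1 value per condition and gene. The deposited tables also hold the authors' fold changes, test scores, p-values and q-values, which were not used here.

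Log2 ratios were computed with 0.01 FPKM added to each value, which understates the change of low genes, over genes with at least 1 FPKM in 1 column. Genes at least 2-fold lower or higher were counted. Without replicate values there was no test. All 9 members are given in every comparison. From 13 hand-written lists, a pathway gene was named where it differed 2-fold in at least 2 comparisons and reached 10 FPKM, up to 4 per list. Of the adenylate kinases, Ak6 and Ak9 were not found. The members and lists were chosen with earlier results of these data known, and TATAA was added after the promoters were read.

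Depth came from the lowest values of single-transcript genes with 1500 bases or more (GENCODE M21), and limits of 3 fragments cover counting error only. The counting of folds and the depth estimate were tested on simulated data. The 4 tables were normalized separately, so levels set across them are descriptions. Alternatives were pseudocounts of 0.1 and 1, minimums of 5 FPKM, of 1 FPKM in both columns and none, centring on the median gene and a 1.5-fold threshold. Analyses were run in Python 3.11.15 with pandas 2.3.3 and numpy 2.4.6, and plots were drawn with matplotlib 3.10.9.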

Additional observations from a re-analysis of the deposited data

Results flagged for a closer look

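Between stages of the Huwe1 knockdown, 4 members had log2 ratios of opposite sign that lay at least 1 apart. None of these differences was tested, since each stage has 1 value per condition. For Ckmt2 the log2 ratio was -7.50 at day 6 and 0.38 at day 8, a difference of 7.87. Its size depends on the added value, since the day 6 knockdown had 0.0232 FPKM, and with 1 FPKM added the ratios were -2.77 and 0.30. For Gatm the log2 ratio was 0.60 at day 6 and -1.96 at day 8, a difference of -2.56. For Gamt it was -0.55 at day 0, 0.99 at day 6 and -1.76 at day 8, so that day 6 lay 1.54 above day 0 and day 8 differed from day 6 by -2.75. For Slc6a8 it was -0.45 at day 6 and 0.63 at day 8, a difference of 1.08. The hairpins, the control and the time of infection also differ between day 6 and day 8 and cannot be told apart from the stage.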

How the results depend on the processing

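No paired analysis was possible because the tables hold no replicate values, which also kept single replicates from being left out. Of 180 member log2 ratios recomputed under the alternatives, 172 kept their direction and side of the 2-fold limit. The minimums only choose which members enter and leave each ratio unchanged, so ratios under them could not turn, and 172 is no measure of robustness. The 8 that changed all arose with the control column of the other day 6 table, chosen after seeing the data. That column was applied to 8 members at day 6 and to 8 members with USP10. With it, Ckb and Ak1 at day 6 turned to 0.41 and 0.90, Gatm and Gamt with USP10 turned to -0.13 and -0.42, Gatm and Gamt at day 6 passed 2-fold (2.08 and 2.18), as did Ckb and Ak1 with USP10 (-2.38 and -1.23, the latter from 0.06). The USP10 median of the members became -1.80 with 5 lower and 0 higher, and that of the day 6 knockdown turned from -0.76 to 0.05 with 3 lower and 2 higher. Over all genes, 1792 of 11597 were then lower and 2029 higher with USP10, and 1160 and 1515 of 11696 at day 6. With a minimum of 1 FPKM in both columns, 2 members were lower at day 6 and 1 with USP10, as Ckmt2 and Ampd1 then no longer entered. Of all genes, 1106 of 10292 were lower at day 6 and 669 of 10400 with USP10. A minimum of 5 FPKM also left 1 member with USP10, again without these 2 genes, and 658 of 8638 genes. With no minimum the day 0 median turned from -0.20 to 0.17 and 2 members were higher at day 0 and 1 at day 8, and with a 1.5-fold threshold 2 at day 6, 1 at day 8 and 2 with USP10. Over all genes, the lower and higher counts with no minimum were 953 and 1710 at day 0, 3141 and 3937 at day 6, 3640 and 2408 at day 8, and 2880 and 2983 with USP10. At the 1.5-fold threshold they were 600 and 513, 2745 and 3111, 2141 and 2051, and 1928 and 2164. With 1 FPKM added, 88 and 124 were left at day 0. Centring on the median gene and pseudocounts changed no member's call, nor the Ckm to Ckb ratios of the 6 differentiated columns by 1.5-fold. The shallow control of the USP10 table limits Ckmt2, Ampd1 and Gamt there.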
